A study of Mus musculus with 114 samples.

Results

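The fat cells of mice fed a high fat diet (HFD) for 20 weeks were set against those of mice kept on a chow diet (CD) for 34 weeks. The comparison takes 14 of the 38 mice in the series, 6 on HFD and 8 on CD, chosen by diet and time on the diet alone. All 14 were male C57BL/6 mice (C57BL/6J in the study's methods) that started the diet at 6 weeks of age and had perigonadal fat, the pad beside the testis, taken at the end of feeding. According to the study's methods the fat was digested with collagenase and the floating fraction was kept as adipocytes, so any cell that floats with a fat cell is in the libraries too. The comparison asks which differences of the HFD mice are still there when the chow mice have been left to age and gain weight for longer. The 34 week CD mice were 14 weeks older than the HFD mice and had spent 14 weeks longer on their diet, so diet, age and time on the diet cannot be told apart here, nor can any handling that differed between the harvests. The study's methods state that mice were fasted for 6 hours before harvest and that most calories of the HFD came from fat. They name alternative control diets without saying which mice ate which, so the control diet of the 34 week CD mice is not known from them. Each mouse gave a single value per gene, in which 3 technical replicates had already been merged.

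White fat cells take up sugar and fat, build fatty acids from sugar (lipogenesis), store them as triglyceride and release them again by lipolysis, and they send out hormones such as leptin and adiponectin. In growing fat the surrounding matrix is rebuilt by proteases and new collagen, and macrophages that take up lipid gather around fat cells and release cytokines. These cells carry surface integrins, the receptors that tie a cell to matrix or to other cells. Each of these functions was followed by a list of its genes, and the lists are described below by role.

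Levels are given in CPM, the reads of a gene per 1000000 reads on all genes of that mouse. Positions are those of RefSeq on GRCm38.p6. The tests used log2(CPM + 1) of the 10470 genes whose mean over the 14 mice was above 2 on that scale. A log2 difference of 1 is a 2-fold difference, and the added 1 makes differences of genes with low CPM smaller than they are. A gene was called when limma's two-sided moderated test gave a Benjamini-Hochberg adjusted p under 0.05 over all genes tested. Mouse numbers in the text are those of the labels.

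The reads on genes ran from 13159018 to 14961360 in the 20 week HFD mice and from 9275711 to 12433584 in the 34 week CD mice, without overlap, and 1 read was worth 0.0668 to 0.108 CPM. When all mice were thinned to the same depth, 5159 genes were called against 5250 without thinning, so the gap in depth moved the count little. The SD between mice of log2(CPM + 1), as a mean over genes, was 0.196 in the HFD mice and 0.407 in the CD mice, and it was larger in the CD mice for 9384 of the 10470 genes. The 34 week CD mouse 5 stood apart from its group in many of the genes below. Where a list count moved by over 1.5 times without it, that count is in most cases also given.

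The label of fat cells held in both groups. The 12 fat cell markers were all tested, and their summed level was 24463 to 32993 CPM in the HFD mice and 29758 to 64191 CPM in the CD mice. Of the 12 markers 10 were lower in the HFD mice and none was higher, and 6 stayed lower when the mean level of the general macrophage markers was added to the fit. Background for these counts was 26.7% of all genes tested called higher in the HFD mice (2792 genes) and 23.5% called lower (2458 genes).

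Markers of other cells were present at the same time. Of 13 general macrophage markers tested 6 were higher and none was lower, with a summed level of 4619 to 9709 CPM in the HFD mice and 1177 to 12754 CPM in the CD mice, and CD mice 1 and 2 lay in the HFD range and CD mouse 5 above it. Without CD mouse 5, 9 of the 13 were higher, and without mouse 5 of the HFD group 3 were. Of the 12 markers of lipid-associated macrophages 8 were higher and 1 was lower, with sums of 11495 to 21025 CPM in the HFD mice and 4877 to 13074 CPM in the CD mice, and 4 stayed higher with the general macrophage level in the fit. The markers of resident macrophages did not move as a group, since 1 of 10 was higher (Folr2) and 1 was lower (Cbr2). The Folr2 call was lost with edgeR, no filter on low values, the macrophage level in the fit and without any single one of 10 of the 14 mice, and 2 were higher without CD mouse 5. All 8 endothelial markers tested were higher, with sums of 195 to 527 CPM against 61.6 to 196 CPM, and 6 of 8 markers of fat progenitors and fibroblasts were higher, with sums of 743 to 1317 CPM against 304 to 752 CPM. Of 7 mural cell markers 4 were higher. Among the neutrophil and monocyte markers none of 3 tested was called and Ly6g had no read in any of the 14 mice, and of the T and NK cell markers only Il7r passed the filter on low values (it was higher), while the highest value of Cd3e, Cd3d or Cd8a in any of the mice was 0.171 CPM (Cd8a). No B cell, epididymis or testis marker passed the filter. Dendritic cell and mast cell lists were left with 1 marker each, Zbtb46 and Kit, both called higher, and the 1 erythroid and the 4 mesothelial markers tested were not called. In a mixed fraction fewer cells of a type and less RNA per cell cannot be told apart.

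Among these markers Trem2, a lipid receptor of macrophages, was at 158 to 376 CPM (median 283) in the HFD mice and 21.5 to 433 CPM (median 87.6) in the CD mice. For Trem2 the log2 difference was 1.49 ± 0.57 (SE, adjusted p = 0.0428). The highest CD mouse was above all HFD mice. This call was lost with edgeR, DESeq2, the replicate block and no filter on low values, without any single one of 10 of the 14 mice, and with the general macrophage level in the fit (adjusted p of 0.401 for Trem2). Gpnmb, a glycoprotein of the same cells, was at 1550.3 to 4466 CPM (median 3247) against 71.1 to 1784 CPM (median 933), where 2 CD mice lay in the HFD range, with a log2 difference of 2.42 ± 0.71 (SE, adjusted p = 0.0118), and its call was lost with the macrophage level in the fit too. The fatty acid transporter Cd36, which fat cells and macrophages share, was at 6119 to 7136 CPM (median 6609.5) against 3069.7 to 5465 CPM (median 3838) without overlap, a log2 difference of 0.73 ± 0.14 (SE, adjusted p = 0.00116), a call that was lost with no filter on low values. The lower gene of the list was Fabp5, a fatty acid binding protein, at 212 to 392 CPM (median 343) against 356 to 718 CPM (median 481) with -0.56 ± 0.18 (SE, adjusted p = 0.017).

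Of the general markers Ptprc, the leukocyte antigen CD45, was at 120.0 to 284 CPM (median 220.1) against 10.3 to 153 CPM (median 59.97) with a log2 difference of 2.17 ± 0.48 (SE, adjusted p = 0.00267), and mouse 5 was the CD mouse that overlapped. Among vessel and stromal markers the junction gene Cdh5 of endothelial cells was at 43.7 to 132 CPM (median 79.5) against 13.04 to 32.1 CPM (median 18.6), with no overlap and a log2 difference of 1.93 ± 0.23 (SE, adjusted p = 7.9e-05). Pdgfra, the receptor that marks fat progenitors, was at 19.1 to 31.5 CPM (median 28.3) against 0.822 to 25.8 CPM (median 2.07), where the CD value of mouse 5 lay among the HFD mice. Pdgfra differed by 2.82 ± 0.46 (SE, adjusted p = 0.000474) on the log2 scale. Notch3, a receptor of mural cells, was at 9.15 to 26.5 CPM (median 16.1) against 0.846 to 5.76 CPM (median 3.46), with no overlap and a difference of 2.07 ± 0.29 (SE, adjusted p = 0.000186). All 4 of these genes stayed called with the general macrophage level in the fit. Ptprc is itself among the markers averaged in that level, so for Ptprc this is no independent check.

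**Figure D1:**
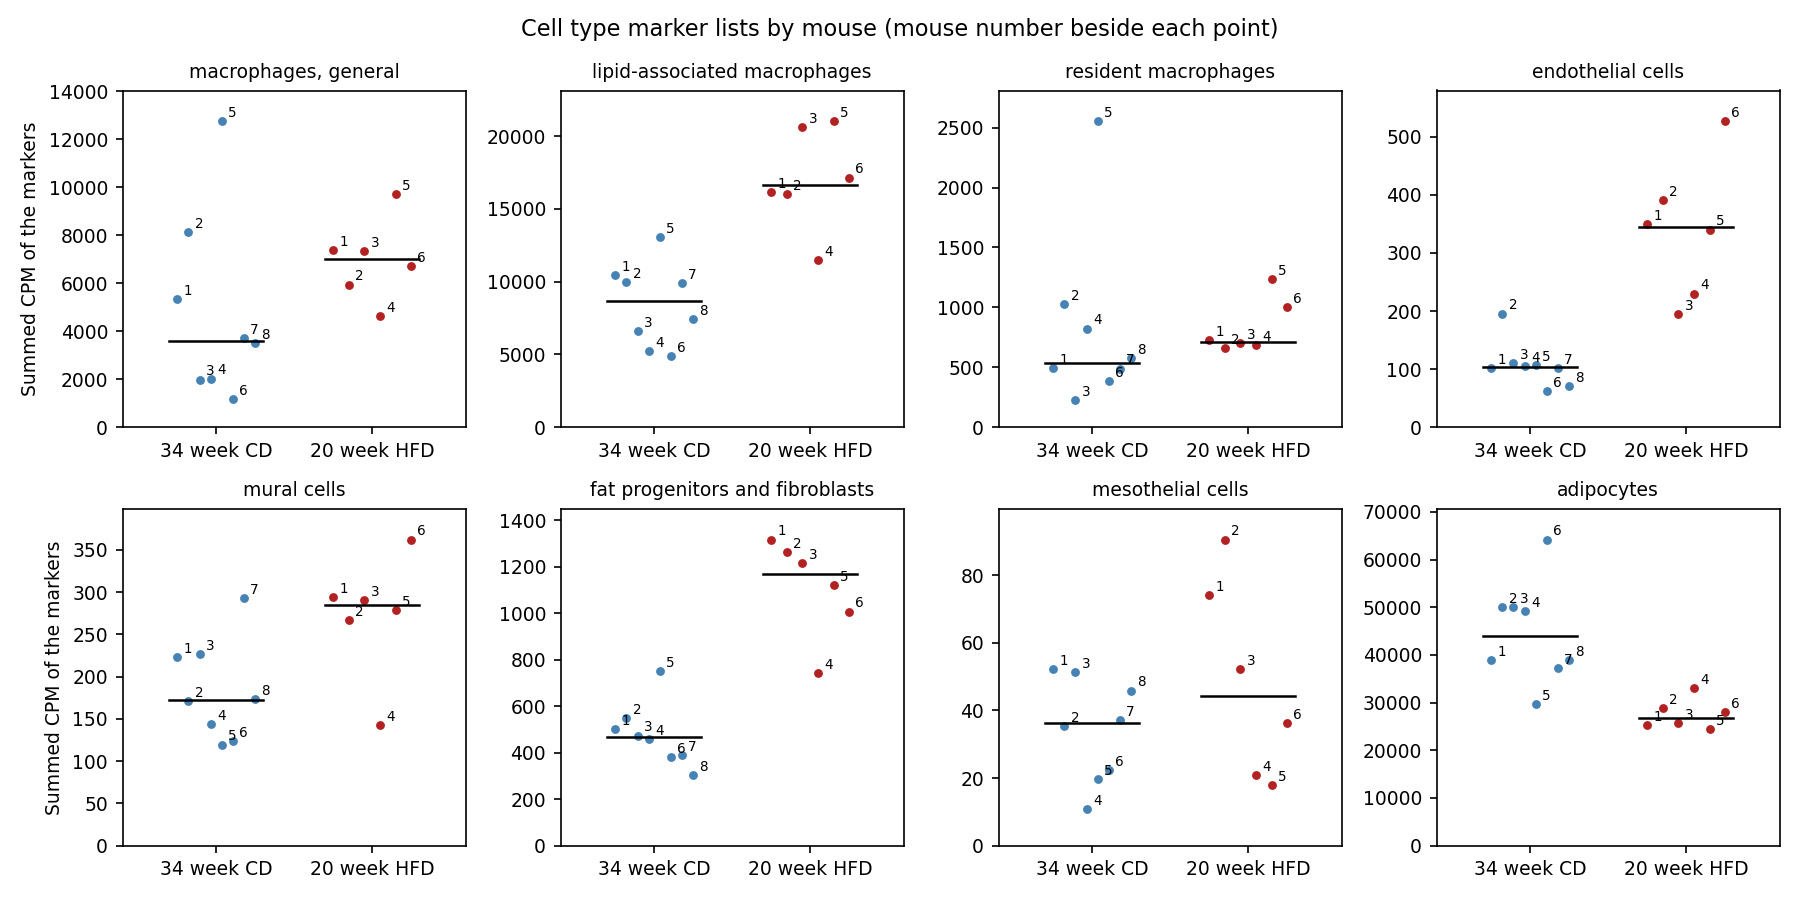
Summed CPM (y axis, from 0) of the markers of 8 cell types in each 34 week CD mouse (blue) and each 20 week HFD mouse (red), with the mouse number beside each point and a line at the median of each group. The lipid-associated macrophage, endothelial and progenitor sums of the HFD mice lie above most CD mice, their fat cell sums lie below those of most CD mice, and CD mouse 5 has the highest sum of the general and the resident macrophage markers.

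About as many genes differed between the groups as did not. In all 5250 genes (50.1%) were called, 2792 higher and 2458 lower in the HFD mice, and 6080 had an unadjusted p under 0.05. The rises were larger than the falls, because 1101 of the genes higher but 127 of the genes lower differed at least 2-fold. In 901 genes (8.61%) the lowest HFD mouse was above the highest CD mouse. In 827 genes (7.9%) the highest HFD mouse was below the lowest CD mouse. Leaving out CD mouse 5 raised the count of genes called to 5961.

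The 10 largest rises without overlap included those of 3 secreted proteases. Adamts4 (Entrez 240913, chr1:171250129-171262267), a secreted protease that cuts the proteoglycans aggrecan and versican, was at 67.3 to 151 CPM (median 133) in the HFD mice and at 0.423 to 20.7 CPM (median 5.63) in the CD mice. The groups were far apart. For Adamts4 the log2 difference was 4.36 ± 0.46 (SE, adjusted p = 3.32e-05). Mmp12 (Entrez 17381, chr9:7344397-7360461), the elastase of macrophages, reached 617 to 3176 CPM (median 1626) in the HFD mice against 20.1 to 292 CPM (median 83.1), and every HFD mouse was above every CD mouse, by a log2 difference of 4.24 ± 0.58 (SE, adjusted p = 0.000157). The collagenase Mmp13 (Entrez 17386, chr9:7272514-7283333) was low in the CD mice at 0.254 to 6.67 CPM (median 0.803) and was at 13.6 to 47.3 CPM (median 33.7) in the HFD mice. For Mmp13 the log2 difference was 3.83 ± 0.39 (SE, adjusted p = 2.59e-05). Its highest CD level was that of mouse 5.

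Icam1 (Entrez 15894, chr9:21015940-21028814), an adhesion molecule that leukocyte integrins bind, was at 366 to 860.5 CPM (median 652) against 6.603 to 182 CPM (median 33.7), the highest CD value being that of mouse 5. For Icam1 the log2 difference was 4.09 ± 0.54 (SE, adjusted p = 0.00014). Gfpt2 (Entrez 14584, chr11:49794155-49838620), which makes the first intermediate of the hexosamine pathway from fructose 6-phosphate, was at 122 to 255 CPM (median 162) in the HFD mice and 2.54 to 37.2 CPM (median 9.199) in the CD mice. For Gfpt2 the log2 difference was 4.12 ± 0.41 (SE, adjusted p = 2.18e-05). Tnip3 (Entrez 414084, chr6:65590398-65634040), an inhibitor of NF-kappa-B signalling, was at 94.03 to 226 CPM (median 131) against 1.100 to 34.3 CPM (median 5.94), with no overlap and a log2 difference of 3.91 ± 0.52 (SE, adjusted p = 0.000134). For these 3 genes the lowest HFD mouse stood above the highest CD mouse.

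Flnc (Entrez 68794, chr6:29433153-29461889), an actin cross-linker known from muscle, was at 39.5 to 88.5 CPM (median 64.8) against 0.846 to 9.24 CPM (median 3.36) and differed by 3.91 ± 0.32 (SE, adjusted p = 7.67e-06) in log2 units. Prdm1 (Entrez 12142, chr10:44437174-44528558), a transcriptional repressor of lymphoid and myeloid cells, was at 55.9 to 115 CPM (median 75.7) against 0.846 to 24.04 CPM (median 4.45). For Prdm1 the log2 difference was 3.74 ± 0.45 (SE, adjusted p = 7.78e-05). Serpinb9b (Entrez 20706, chr13:33027414-33040588), an intracellular serine protease inhibitor, was at 18.5 to 115 CPM (median 26.3) in the HFD mice, where mouse 3 was far above the others, and at 0.169 to 4.62 CPM (median 1.08) in the CD mice. For Serpinb9b the log2 difference was 3.95 ± 0.43 (SE, adjusted p = 3.97e-05). Fat3 (Entrez 270120, chr9:15910189-16502681), a giant cadherin, had no read in 1 CD mouse, was at 0 to 9.07 CPM (median 0.583) in that group and at 16.1 to 31.1 CPM (median 27.3) in the HFD mice. For Fat3 the log2 difference was 3.77 ± 0.42 (SE, adjusted p = 4.43e-05). All 10 of these genes stayed called when the general macrophage level was added to the fit, with adjusted p from 9.12e-06 (Flnc) to 0.000362 (Icam1).

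**Figure D2:**
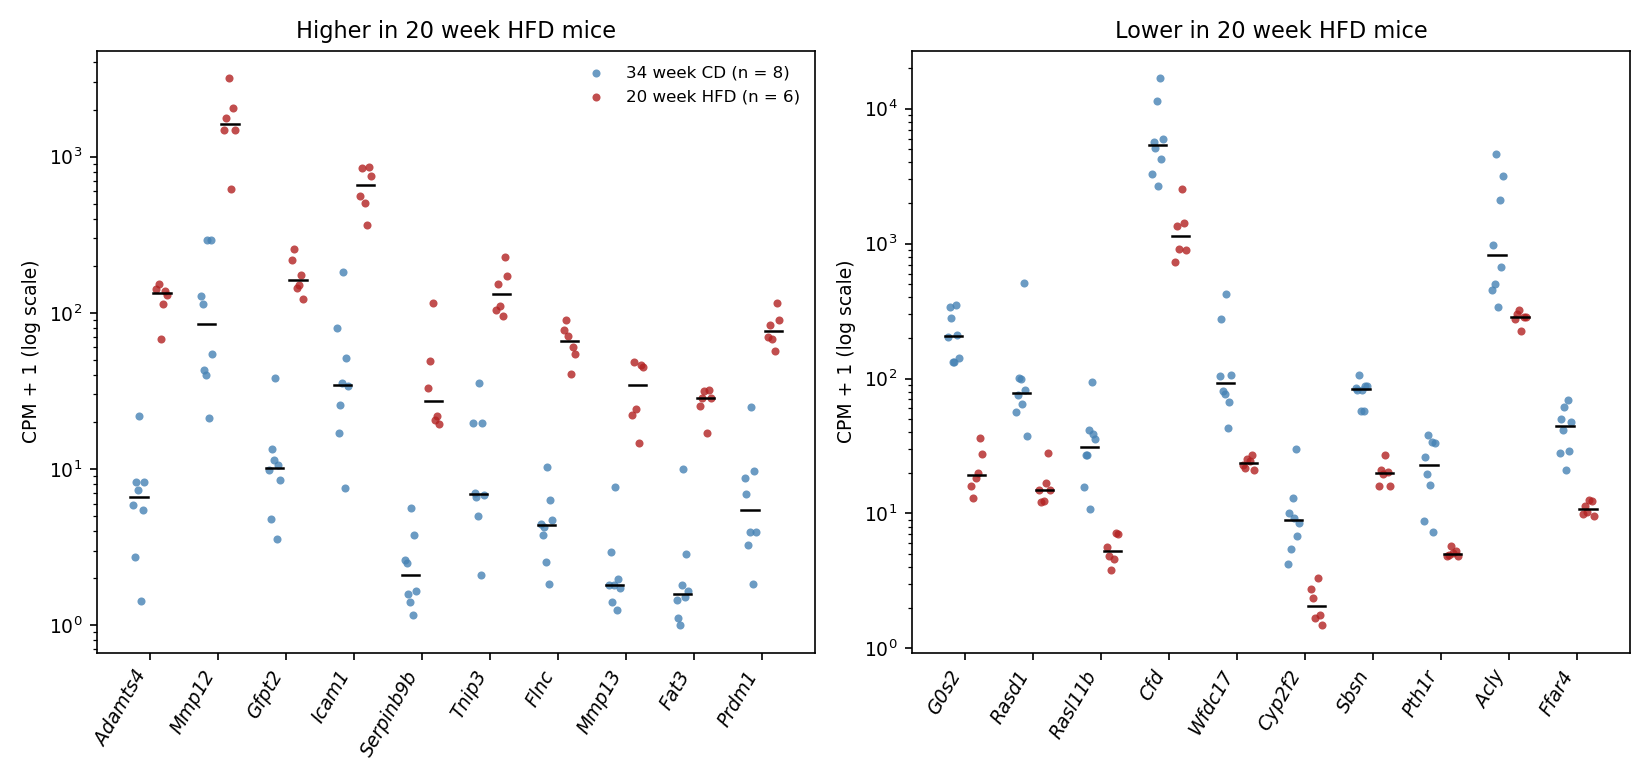
CPM + 1 (y axis, log scale) in each 20 week HFD mouse and each 34 week CD mouse for the 10 genes with the largest rise and the 10 with the largest fall among genes without overlap, with a line at each group's median. For every gene the 6 HFD mice lie on one side of all 8 CD mice.

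The 10 largest falls without overlap included those of G0s2, Cfd and Acly, which act in fat cells. G0s2 (Entrez 14373, chr1:193272160-193273188), the inhibitor of the triglyceride lipase ATGL (encoded by Pnpla2), was at 11.9 to 35.1 CPM (median 18.2) in the HFD mice and at 131 to 350.2 CPM (median 206) in the CD mice. For G0s2 the log2 difference was -3.34 ± 0.28 (SE, adjusted p = 1.19e-05). No HFD mouse came near the CD range. Cfd (Entrez 11537, chr10:79890853-79892655), which encodes the adipokine adipsin of the alternative complement pathway, was at 729 to 2540.4 CPM (median 1132) against 2680.4 to 16864 CPM (median 5375) and fell by a log2 difference of -2.27 ± 0.40 (SE, adjusted p = 0.000707). Acly (Entrez 104112, chr11:100476352-100528000), the enzyme that makes cytosolic acetyl-CoA for lipogenesis, was at 223 to 321 CPM (median 286) in the HFD mice and varied from 337 to 4612 CPM (median 824) in the CD mice. For Acly the log2 difference was -1.91 ± 0.53 (SE, adjusted p = 0.00921). The lowest CD mouse was just above the highest HFD mouse, and the adjusted p was 0.0799 with the general macrophage level in the fit.

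Ffar4 (Entrez 107221, chr19:38097079-38114263), a receptor for long-chain fatty acids, was at 8.498 to 11.6 CPM (median 9.86) against 19.9 to 68.1 CPM (median 43.5). For Ffar4 the log2 difference was -1.88 ± 0.24 (SE, adjusted p = 0.000101). Pth1r (Entrez 19228, chr9:110722085-110747145), the receptor of parathyroid hormone and its related peptide, was at 3.800 to 4.71 CPM (median 4.02) against 6.33 to 37.2 CPM (median 21.9). For Pth1r the log2 difference was -1.95 ± 0.34 (SE, adjusted p = 0.00074). Sbsn (Entrez 282619, chr7:30732674-30756134), first known from skin, was at 14.9 to 26.2 CPM (median 18.9) against 56.7 to 105 CPM (median 82.8), and the log2 difference of -2.02 ± 0.15 (SE, adjusted p = 5.94e-06) had the smallest error of the 10. Both groups were tight for Sbsn, whereas the CD mice were wide for Pth1r.

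Rasd1 (Entrez 19416, chr11:59963181-59964944), a Ras-like protein induced by glucocorticoids, was at 11.2 to 27.05 CPM (median 13.96) against 36.3 to 505 CPM (median 77.6), and CD mouse 6 held the highest value. Its log2 difference was -2.505 ± 0.44 (SE, adjusted p = 0.000711). Rasl11b (Entrez 68939, chr5:74195326-74199477), also Ras-like, was at 2.81 to 6.12 CPM (median 4.24) against 9.84 to 92.9 CPM (median 30.3), again with mouse 6 on top. Rasl11b differed by -2.48 ± 0.37 (SE, adjusted p = 0.000291) on the log2 scale. Mouse 6 was also the highest for Cyp2f2 (Entrez 13107, chr7:27119955-27133660), a cytochrome P450, at 0.484 to 2.34 CPM (median 1.06) against 3.21 to 29.2 CPM (median 7.93). For Cyp2f2 the log2 difference was -2.097 ± 0.36 (SE, adjusted p = 0.000664). Wfdc17 (Entrez 100034251, chr11:83704056-83706269), a small secreted protein with a whey acidic protein domain, was at 19.97 to 26.2 CPM (median 22.7) against 42.2 to 425 CPM (median 91.7). Wfdc17 differed by -2.23 ± 0.41 (SE, adjusted p = 0.000975) on the log2 scale.

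Genes of inflammation rose together. Of 23 cytokine and inflammasome genes tested 19 were higher and 1 was lower in the HFD mice, with a median log2 difference of 2.09 against 0.035 over all genes tested, and 9 of the 19 did not overlap. Over all genes tested 26.7% were called higher and 8.61% were higher without overlap. With the general macrophage level in the fit 16 were higher and 2 were lower. In the comparison of the 2 diets at 20 weeks, which shares its HFD mice, the median of this list was 0.52. Its summed level was 3482 to 6726 CPM in the 20 week CD mice and 454 to 4637 CPM in the 34 week CD mice. In the 20 week HFD mice the sum was 4406 to 9535 CPM, so the 34 week CD level was low beside both 20 week groups. The 3 largest rises were those of Il1b, Il6 and Tnf, the best known inflammatory cytokines. Il1b was at 306 to 1564 CPM (median 819) against 8.13 to 333 CPM (median 38.7), and 1 CD mouse, mouse 5, reached into the HFD range. Its log2 difference was 4.21 ± 0.68 (SE, adjusted p = 0.000454). Il6 was at 58.9 to 185 CPM (median 139) against 2.201 to 37.4 CPM (median 7.23), without overlap. For Il6 the log2 difference was 3.66 ± 0.44 (SE, adjusted p = 7.9e-05). Tnf was at 615 to 1520.1 CPM (median 934) against 15.2 to 411 CPM (median 74.4), also without overlap. For Tnf the log2 difference was 3.56 ± 0.64 (SE, adjusted p = 0.00079). The 1 gene of the list that was lower was Osm, which encodes oncostatin M and whose call was lost without any single one of 11 of the 14 mice, and Pycard, Il18 and Il34 were not called.

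Of 18 chemokine genes tested 12 were higher and 1 (Ccl8, a call lost without HFD mouse 1, 2, 3, 5 or 6 or CD mouse 2) was lower, with a median log2 difference of 1.56, and 9 were higher and 2 lower with the macrophage level in the fit. In the 20 week diet comparison the chemokine median was 0.60. Ccl22, which draws in T cells through CCR4, was at 5.67 to 46.01 CPM (median 19.4) against 0.0846 to 1.87 CPM (median 0.394), and no CD mouse reached the lowest HFD mouse. The log2 difference was 3.38 ± 0.45 (SE, adjusted p = 0.00014). Cxcl3, a ligand of the neutrophil receptor CXCR2, was at 13.4 to 37.6 CPM (median 21.1) against 0.0846 to 3.59 CPM (median 1.47). Cxcl3 differed by 3.296 ± 0.30 (SE, adjusted p = 1.37e-05) on the log2 scale. Cxcl10, an interferon-induced ligand of CXCR3, was at 146 to 308 CPM (median 229.5) against 24.3 to 174 CPM (median 85.6), where 2 CD mice lay in the HFD range. For Cxcl10 the log2 difference was 1.36 ± 0.35 (SE, adjusted p = 0.00638). At equal age Cxcl10 was lower in the HFD mice. It was at 807 to 2100 CPM (median 1211) in the 20 week CD mice. By diet it differed by -2.44 log2 units at 20 weeks (adjusted p = 5.3e-06 in limma) and by -2.37 at 8 weeks (adjusted p = 5.1e-05 in limma). Of 22 interferon-stimulated genes 5 were higher and 3 were lower, against 26.7% and 23.5% of all genes. Without single mice the higher count ran from 2 (HFD mouse 2 or 6 or CD mouse 2, 4 or 6) to 9 (CD mouse 3) and the lower count from 2 to 6 (CD mouse 6), and edgeR and DESeq2 each called 7 lower. The 4 MHC class II genes that were higher of 7 tested, H2-Aa, H2-Ab1, H2-Eb1 and Cd74, present peptides to helper T cells. H2-Aa was at 514 to 1227 CPM (median 691) against 84.5 to 600.2 CPM (median 310.1), a log2 difference of 1.31 ± 0.40 (SE, adjusted p = 0.0153), and none of the 7 was called with the macrophage level in the fit.

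Several of these cytokine and chemokine genes carried the letters of an NF-kappa-B site near their start in RefSeq's promoter windows (GRCm38.p6, 250 bases before to 50 after the start of transcription). The letters were looked for on both strands with the NF-kappa-B consensus, chosen after the values had been seen. Of 16 cytokine and inflammasome genes called higher that had a window 8 (50%) held a match, and of 7 chemokine genes called higher 5 (71.4%) did, against 9.55% of the 27025 genes with a window and 12.5% of the tested genes with one. The windows of 5 genes are shown in 30 bases each, 5′ to 3′ on the strand of the gene, with the matching 10 letters in capitals. They hold the letters and belong to the 2 lists, and they were picked after their values were seen. The inhibitor gene Nfkbia is in the cytokine list and is a known target of the factor. It is counted among the 8, so part of that share follows from how the list was chosen. Other genes of both lists may be known targets too, so neither share can be told apart from the choice of lists. Over all list genes with a window, tested or not, 8 of 19 (42.1%) cytokine and 8 of 26 (30.8%) chemokine genes held a match. Of the genes not called with a window, 0 of 2 and 0 of 3 did, too few to set beside the others. A match is a description of the letters and no evidence of binding here.
Il6, chr5:30013060-30013089, plus strand: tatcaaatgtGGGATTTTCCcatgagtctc
Cxcl3, chr5:90786018-90786047, plus strand: gagctgcgggGGGAATTTCCccagcccggg
Cxcl1, chr5:90891164-90891193, plus strand: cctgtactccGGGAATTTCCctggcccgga
Cxcl10, chr5:92349029-92349058, minus strand: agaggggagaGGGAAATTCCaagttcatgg
Nfkbia, chr12:55492657-55492686, minus strand: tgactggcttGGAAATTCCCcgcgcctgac
Il6 and Cxcl3 were among the larger rises of their lists, and Cxcl10 was the smallest rise among the chemokines called higher.

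The matrix was the next large group. Of 32 remodelling enzymes and their inhibitors 21 were higher and 1 (Mmp9) was lower (3 without CD mouse 5), with a median log2 difference of 1.18. Beside Adamts4, Mmp12 and Mmp13 above, Mmp2, a gelatinase of fibroblasts, was at 32.1 to 80.2 CPM (median 56.3) against 1.97 to 59.1 CPM (median 3.68), and the CD value inside the HFD range was that of mouse 5. The log2 difference was 3.14 ± 0.54 (SE, adjusted p = 0.000635). Ctsk, the collagen-cutting cathepsin K, was at 153 to 490.5 CPM (median 352) against 11.4 to 294 CPM (median 54.7) with a log2 difference of 2.83 ± 0.61 (SE, adjusted p = 0.00224), and here too 1 CD mouse overlapped. Both genes stayed called with the macrophage level in the fit, with adjusted p of 0.00156 (Mmp2) and 0.00295 (Ctsk).

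Of 41 matrix glycoproteins 21 were higher and 1 (Nid2, a basement membrane nidogen) was lower (2 without CD mouse 5), with a median log2 difference of 0.83, and 13 were higher and none lower with the macrophage level in the fit. Lama2, a laminin chain of basement membranes, was at 42.05 to 76.1 CPM (median 72.9) against 1.75 to 16.3 CPM (median 3.901), the HFD mouse 4 being the lowest of its group and still above every CD mouse. The log2 difference was 3.73 ± 0.33 (SE, adjusted p = 1.27e-05). Postn, periostin of healing and fibrotic tissue, was at 95.1 to 193 CPM (median 132) against 5.92 to 115 CPM (median 10.6) with a log2 difference of 3.21 ± 0.50 (SE, adjusted p = 0.000375), and CD mouse 5 was the only CD mouse in the HFD range. Tnc, tenascin C, was at 36.2 to 84.5 CPM (median 51.7) against 1.19 to 14.3 CPM (median 5.72), without overlap. For Tnc the log2 difference was 3.09 ± 0.40 (SE, adjusted p = 0.000123). Fn1, fibronectin, was at 205 to 787 CPM (median 412) against 44.4 to 509 CPM (median 158) and differed by 1.42 ± 0.46 (SE, adjusted p = 0.0202), a call that was lost with the macrophage level in the fit (adjusted p of 0.187 for Fn1) and without HFD mouse 5. Sparc, a collagen-binding protein of fat, was at 2638 to 5428 CPM (median 4204) against 2229 to 6432 CPM (median 3746), the groups overlapped, and its difference of 0.09 ± 0.27 (SE, adjusted p = 0.803) was not called, with a 95% interval from -0.49 to 0.67.

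Of 21 collagen chains 9 were higher and none was lower, with a median log2 difference of 0.80. Col6a5 was at 60.4 to 83.04 CPM (median 71.9) against 4.36 to 67.5 CPM (median 5.48), where all CD mice but mouse 5 were far under the HFD mice, and the log2 difference was 3.07 ± 0.47 (SE, adjusted p = 0.000325). Col6a3, a chain of the type VI collagen that surrounds fat cells, was at 128 to 342 CPM (median 226) against 40.5 to 155 CPM (median 88.5). For Col6a3 the log2 difference was 1.35 ± 0.29 (SE, adjusted p = 0.00229). The fibrillar Col1a1 was at 86.3 to 301 CPM (median 201) against 28.6 to 555 CPM (median 139), with wide overlap and a difference of 0.57 ± 0.56 (SE, adjusted p = 0.413) that was not called (95% interval -0.64 to 1.77), and the basement membrane Col4a1 was at 1050.2 to 1892 CPM (median 1707) against 948 to 2363 CPM (median 1348), likewise not called, with a difference of 0.18 ± 0.23 (SE, adjusted p = 0.52) and an interval of -0.31 to 0.67. Of 10 matrix proteoglycans 6 were higher and none was lower. The endothelial, progenitor and mural markers given above rose in the same mice, and their part in the matrix results was not tested.

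Receptors and skeleton of the cell moved the same way as the matrix. The integrin list held 17 genes tested, of which 10 were higher, all of them chains, and 2 were lower, Itgb1bp1 and Itgb3bp, which are binding partners and not chains. Itgax, the CD11c chain of macrophages and dendritic cells, was at 140.0 to 608 CPM (median 359.7) against 4.32 to 80.7 CPM (median 27.3), without overlap. For Itgax the log2 difference was 3.71 ± 0.59 (SE, adjusted p = 0.000398). Itga5, the fibronectin receptor chain, was at 306 to 425 CPM (median 389.7) against 10.3 to 128 CPM (median 31.5), again without overlap. For Itga5 the log2 difference was 3.29 ± 0.43 (SE, adjusted p = 0.00013). Itgad, a leukocyte chain, was at 20.6 to 57.6 CPM (median 42.8) against 0.677 to 21.8 CPM (median 2.56) and differed by 2.999 ± 0.52 (SE, adjusted p = 0.000635), with 1 CD mouse in the HFD range. Of 53 actin and focal adhesion genes 32 were higher and none was lower, with a median log2 difference of 0.69, and 22 were higher with the macrophage level in the fit. The smooth muscle actin gene Acta2 was not among them, at 25.7 to 158 CPM (median 120.1) against 10.9 to 216 CPM (median 101), a difference of 0.34 ± 0.60 (SE, adjusted p = 0.656) with a 95% interval from -0.95 to 1.62, nor was the transcription factor Srf of actin genes.

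Of 24 genes of the TGF-beta pathway, the classical inducer of matrix genes, 13 were higher and 1 (Acvr1c, a receptor of fat cells) was lower, and 7 stayed higher with the macrophage level in the fit. The median log2 difference of the list was 0.51 here, and by diet 0.10 at 20 weeks and -0.19 at 8 weeks (5 higher, 6 lower). Its summed medians were 3093 CPM in the 20 week CD, 3078 CPM in the 20 week HFD and 2230 CPM in the 34 week CD mice. The type I receptor Tgfbr1 was at 109 to 234 CPM (median 175) against 24.9 to 61.1 CPM (median 43.2), without overlap. For Tgfbr1 the log2 difference was 2.06 ± 0.22 (SE, adjusted p = 3.72e-05). The ligand Tgfb1 was at 73.5 to 138 CPM (median 109.8) against 25.9 to 146 CPM (median 53.2) and differed by 0.91 ± 0.32 (SE, adjusted p = 0.0273), and the type II receptor Tgfbr2 was at 118 to 148 CPM (median 134) against 50.03 to 178 CPM (median 88.7). Tgfbr2 differed by 0.70 ± 0.23 (SE, adjusted p = 0.023) on the log2 scale. Both calls were lost with the macrophage level in the fit, with adjusted p of 0.132 (Tgfb1) and 0.175 (Tgfbr2), and that of Tgfb1 was lost without HFD mouse 1, 5 or 6. Skil, a feedback inhibitor of the pathway, was at 148 to 222 CPM (median 179) against 15.2 to 127 CPM (median 56.5), without overlap. Skil differed by 1.74 ± 0.37 (SE, adjusted p = 0.00202) on the log2 scale. By diet at 20 weeks Tgfbr1, Tgfb1 and Tgfbr2 were called higher in the HFD mice, by 1.11, 1.99 and 0.66. Skil was not called there at -0.16 (adjusted p = 0.265 in limma), with a 20 week CD median of 193 CPM.

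**Figure D3:**
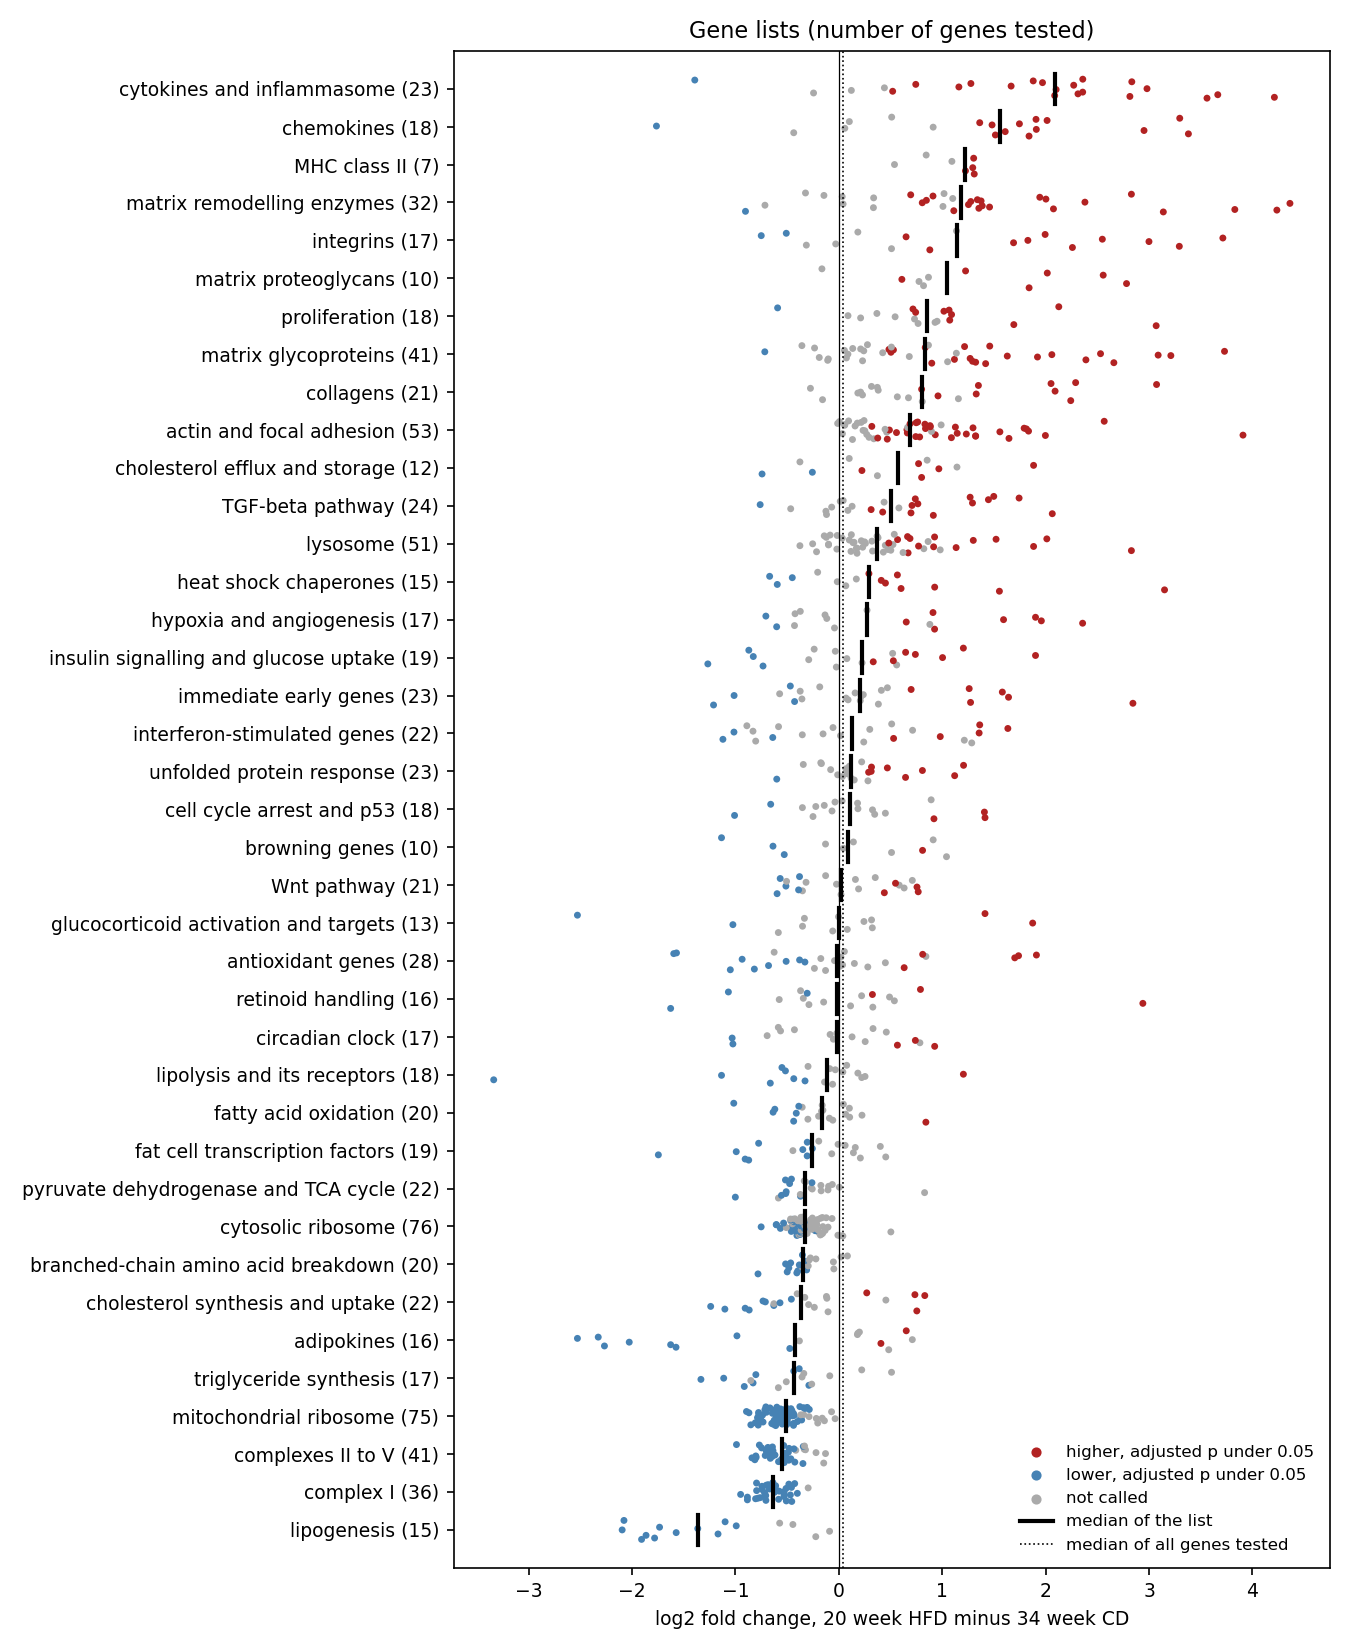
Log2 difference (x axis, 20 week HFD minus 34 week CD) of every tested gene of 39 lists (y axis, with the number tested), in red where called higher, blue where called lower and grey where not called, with a bar at the median of the list and a dotted line at the median of all genes tested. Cytokines stand at the top with a median of 2.09, and lipogenesis stands at the bottom with -1.36.

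Genes that make fatty acids were lower. Of 15 lipogenesis genes 11 were lower and none was higher, with a median log2 difference of -1.36 against 0.035 over all genes tested. Beside Acly, Elovl6, which lengthens palmitate, was at 9.998 to 27.8 CPM (median 21.97) in the HFD mice and spread from 17.5 to 292 CPM (median 104) in the CD mice. For Elovl6 the log2 difference was -2.096 ± 0.51 (SE, adjusted p = 0.00465). Acss2, which turns acetate into acetyl-CoA, was at 48.7 to 103 CPM (median 85.9) against 85.04 to 1357 CPM (median 283). Acss2 differed by -2.08 ± 0.51 (SE, adjusted p = 0.00442) on the log2 scale. Each had 1 CD mouse inside the HFD range. Srebf1, the transcription factor of the pathway, was at 166 to 257 CPM (median 217) against 299 to 722 CPM (median 397), without overlap. Srebf1 differed by -0.99 ± 0.19 (SE, adjusted p = 0.00112) on the log2 scale. With the macrophage level in the fit 5 of the 15 stayed lower. Of 17 triglyceride synthesis genes 8 were lower and none higher, a count that was 4 without HFD mouse 1, 3, 5 or 6 or CD mouse 3, 4 or 8 and 12 without CD mouse 5. With the macrophage level in the fit 3 were lower.

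Other fat cell functions were lower in part. Of 18 lipolysis genes and receptors 7 were lower and 1 was higher, and 4 were lower without HFD mouse 1, 3, 5 or 6 or CD mouse 3 and 2 with the macrophage level in the fit. Hormone-sensitive lipase Lipe was at 1386 to 2239.9 CPM (median 1482) against 1642 to 3982 CPM (median 2452) with a log2 difference of -0.66 ± 0.18 (SE, adjusted p = 0.00844), and the beta-3 adrenergic receptor Adrb3 was at 139 to 357 CPM (median 205) against 216 to 971 CPM (median 440.0) with -1.14 ± 0.34 (SE, adjusted p = 0.0144). Both calls were lost with the macrophage level in the fit. The 1 gene that was higher was Npr1, a receptor of natriuretic peptides, at 21.6 to 35.7 CPM (median 28.2) against 7.62 to 26.7 CPM (median 10.5). For Npr1 the log2 difference was 1.204 ± 0.23 (SE, adjusted p = 0.0013). The lipase genes Pnpla2 and Mgll were not called, with differences of -0.06 ± 0.20 (SE, adjusted p = 0.816) (95% interval -0.49 to 0.37) for Pnpla2 and -0.14 ± 0.16 (SE, adjusted p = 0.493) (95% interval -0.49 to 0.21) for Mgll. Pnpla2 was at 1589 to 3164 CPM (median 1922) against 1381 to 3325 CPM (median 2288) and Mgll at 1182 to 1499 CPM (median 1418) against 828 to 1823 CPM (median 1640.5).

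Of 16 adipokine genes 8 were lower and 2 (Angptl4 and Nampt) were higher (1 without CD mouse 5). Lep, leptin, was at 1008 to 3911 CPM (median 2443) against 591 to 3833 CPM (median 1631), with 6 of the 8 CD mice inside the HFD range, and its difference of 0.48 ± 0.45 (SE, adjusted p = 0.384) was not called (95% interval -0.49 to 1.45). Adipoq, adiponectin, was at 3163 to 4409 CPM (median 3289) against 3442 to 6396 CPM (median 5011) and was lower by a log2 difference of -0.47 ± 0.15 (SE, adjusted p = 0.0183). The Adipoq call was lost with no filter on low values and with the macrophage level in the fit (adjusted p of 0.129). Retn, resistin, was at 341 to 622 CPM (median 495) against 561 to 3466 CPM (median 1470.0). Retn differed by -1.58 ± 0.37 (SE, adjusted p = 0.0035) on the log2 scale. The acute phase genes Lcn2 and Saa3 were lower as well. Lcn2 was at 7.14 to 15.4 CPM (median 10.6) against 6.77 to 213 CPM (median 103) with a log2 difference of -2.53 ± 0.65 (SE, adjusted p = 0.00614), and Saa3 was at 16.9 to 29.8 CPM (median 25.6) against 16.00 to 776 CPM (median 153) with -2.33 ± 0.64 (SE, adjusted p = 0.00867). For both the lowest CD mouse was below the lowest HFD mouse and most CD mice were above all HFD mice. Among 19 fat cell transcription factors 9 were lower and none was higher, led by Klf15 at 12.3 to 31.5 CPM (median 24.7) against 48.4 to 178 CPM (median 67.1), a log2 difference of -1.75 ± 0.29 (SE, adjusted p = 0.000546) and Cebpa, a master factor of fat cells, at 376 to 425 CPM (median 389) against 530.1 to 1339.9 CPM (median 666), a log2 difference of -0.91 ± 0.17 (SE, adjusted p = 0.00116), both without overlap. With the macrophage level in the fit 5 of the 19 were lower.

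Of 19 genes of insulin signalling and glucose uptake 7 were higher and 4 were lower. Irs3, an insulin receptor substrate of rodent fat cells, was at 17.2 to 27.2 CPM (median 21.4) against 40.7 to 77.7 CPM (median 50.98), without overlap. For Irs3 the log2 difference was -1.27 ± 0.14 (SE, adjusted p = 5.32e-05). The basal glucose transporter Slc2a1 moved the other way, at 68.4 to 109.8 CPM (median 83.6) against 14.7 to 35.7 CPM (median 22.7), also without overlap. For Slc2a1 the log2 difference was 1.902 ± 0.17 (SE, adjusted p = 1.27e-05). At equal age both genes differed in the opposite direction. By diet Irs3 was higher in the HFD mice by 0.63 at 20 weeks (adjusted p = 0.00787 in limma). At 8 weeks it was higher by 1.03 (adjusted p = 0.00235 in limma). The 20 week CD median of Irs3 was 13.03 CPM. Slc2a1 differed by diet by -0.53 at 20 weeks (adjusted p = 0.00234 in limma) and by -1.02 at 8 weeks (adjusted p = 0.00384 in limma).

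Most genes of the respiratory complexes and of the mitochondrial ribosome were lower, by small amounts. Of 36 genes of complex I, where electrons enter the respiratory chain, 35 were lower and none was higher, with a median log2 difference of -0.64, and 19 of them did not overlap. Of 41 genes of complexes II to V 34 were lower, and of 75 genes of the mitochondrial ribosome, which makes the few proteins encoded in mitochondria, 66 were lower and 41 did not overlap. None in either list was higher. Over all genes tested 23.5% were called lower and 7.9% were lower without overlap. With the macrophage level in the fit 26 complex I genes, 26 of complexes II to V and 58 of the mitochondrial ribosome stayed lower. Ndufb10, a complex I subunit, was at 75.1 to 95.02 CPM (median 82.4) against 108 to 252 CPM (median 161). For Ndufb10 the log2 difference was -0.95 ± 0.19 (SE, adjusted p = 0.00131). Uqcrq of complex III was at 99.3 to 118 CPM (median 108) against 143 to 330.4 CPM (median 220.3) and differed by -0.99 ± 0.20 (SE, adjusted p = 0.00137), and Mrps18c of the mitochondrial ribosome was at 16.8 to 20.1 CPM (median 18.7) against 24.02 to 50.2 CPM (median 37.8). Mrps18c differed by -0.89 ± 0.14 (SE, adjusted p = 0.000391) on the log2 scale. All 3 had their lowest CD mouse above their highest HFD mouse. Summed complex I medians were 4026 CPM in the 20 week CD and 3045 CPM in the 20 week HFD mice. They were 4959 CPM in the 34 week CD and 3886 CPM in the 34 week HFD mice. In the same order those of the mitochondrial ribosome were 2591, 2332, 3466 and 2988 CPM. By diet at 20 weeks the median log2 differences were -0.37 for complex I, -0.32 for complexes II to V and -0.12 for the mitochondrial ribosome. Levels were not tested between times.

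Pathways inside mitochondria held fewer lower genes. Of 22 genes of pyruvate dehydrogenase and the TCA cycle 9 were lower and none higher, led by Pdhb at 135 to 164 CPM (median 155) against 184 to 642 CPM (median 283), a log2 difference of -1.002 ± 0.25 (SE, adjusted p = 0.00524), and of 20 genes of branched-chain amino acid breakdown 11 were lower and none higher, led by Bcat2 at 125 to 186 CPM (median 133) against 142 to 455 CPM (median 257). For Bcat2 the log2 difference was -0.78 ± 0.23 (SE, adjusted p = 0.0125). In each list 1 gene was lower with the macrophage level in the fit, where the Bcat2 call was lost (adjusted p of 0.0674), and the second count was 6 without HFD mouse 3, 5 or 6. Of 20 fatty acid oxidation genes 6 were lower (3 with the macrophage level in the fit) and 1 was higher, against 23.5% and 26.7% of all genes. Of 76 genes of the cytosolic ribosome 23 were lower and none higher, which stands beside 23.5% of all genes, and this count ran from 12 without HFD mouse 1 to 44 without CD mouse 7. The lower count was 34 with TMM factors, 31 with median-of-ratios factors, 40 with edgeR, 46 with DESeq2, 38 with the macrophage level in the fit and 63 with the replicate block, so how it stands to all genes depended on these settings. Rpl41, its largest fall, was at 261 to 323 CPM (median 285) against 334 to 778 CPM (median 496), a log2 difference of -0.75 ± 0.17 (SE, adjusted p = 0.00292), and genes of this family share reads with many processed copies, so their values are uncertain.

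Lysosomes digest what macrophages and fat cells take up. Of 51 lysosome genes 14 were higher and none lower, close to the share of all genes, and 20 were higher without CD mouse 5. With the macrophage level in the fit 7 were higher and 8 lower. Beside Ctsk, the lysosomal lipase Lipa was at 552 to 1089.6 CPM (median 809.8) against 77.03 to 687 CPM (median 254) with a log2 difference of 1.88 ± 0.43 (SE, adjusted p = 0.00295), and the proton pump subunit Atp6v0d2 of macrophages and osteoclasts was at 215 to 464 CPM (median 329.6) against 12.8 to 281 CPM (median 121) with 2.01 ± 0.63 (SE, adjusted p = 0.0171). The Atp6v0d2 call was lost with the macrophage level in the fit (adjusted p of 0.131). The pump subunit Atp6v1a was at 325 to 555 CPM (median 462) against 132 to 429 CPM (median 259) with 0.93 ± 0.22 (SE, adjusted p = 0.00433). For each of the 3, 1 CD mouse lay in the HFD range.

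The letters CACGTG, the core of the E-box that the lysosome regulators TFEB and MITF read, stood in 12 of the 40 RefSeq promoter windows of the lysosome list (30%), against 8.09% of the 27025 genes with a window and 12.2% of those tested. Of the 10 lysosome genes called higher with a window 1 held the letters, Atp6v1a, and of the 30 not called 11 did. The window of Atp6v1a is shown with those of 2 genes of the list that were not called, with the letters in capitals. The letters read the same on both strands.
Atp6v1a, chr16:44139373-44139402, minus strand: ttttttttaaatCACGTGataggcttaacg
Mcoln1, chr8:3500462-3500491, plus strand: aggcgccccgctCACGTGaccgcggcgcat
Ctsd, chr7:142387908-142387937, minus strand: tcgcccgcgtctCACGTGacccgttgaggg
Genes with and without these letters were thus found on both sides of the threshold.

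Cholesterol genes were split by role. Of 22 genes of synthesis and uptake 9 were lower, all of them enzymes of synthesis, and 4 were higher, among them the transcription factor gene Srebf2 and Scap, which encodes its escort. The median log2 difference of this list was -0.37 here, but by diet at equal age it was 0.59 at 20 weeks and 0.69 at 8 weeks. At 8 weeks 14 of the 22 were higher in the HFD mice and 1 was lower. Fdps was at 19.9 to 39.8 CPM (median 33.6) against 31.4 to 155 CPM (median 86.8), a log2 difference of -1.24 ± 0.28 (SE, adjusted p = 0.00318) and Pmvk at 33.4 to 45.9 CPM (median 39.9) against 38.2 to 173 CPM (median 91.9), a log2 difference of -1.103 ± 0.25 (SE, adjusted p = 0.00314), both enzymes of the mevalonate pathway. By diet at 20 weeks Fdps was higher in the HFD mice by 0.79 (adjusted p = 0.0020 in limma). Pmvk was not called there at 0.06 (adjusted p = 0.632 in limma). Their 20 week CD medians were 17.1 and 37.9 CPM. Among 12 efflux and storage genes 5 were higher (3 without HFD mouse 1, 5 or 6 or CD mouse 3 or 4, or with edgeR, and 1 with the macrophage level in the fit) and 2 were lower. The efflux pump Abca1 was at 638 to 929.9 CPM (median 774) against 265 to 673 CPM (median 446). Abca1 differed by 0.80 ± 0.23 (SE, adjusted p = 0.0115) on the log2 scale, and this call was lost with the macrophage level in the fit (adjusted p of 0.0831).

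Genes of stress and growth did not move as one. Of 28 antioxidant genes 5 were higher and 9 lower. Srxn1 and Txnrd1, both targets of NRF2, were higher without overlap, Srxn1 at 202 to 337 CPM (median 274) against 43.7 to 126 CPM (median 85.4), a log2 difference of 1.74 ± 0.20 (SE, adjusted p = 6.24e-05) and Txnrd1 at 372 to 488 CPM (median 435) against 80.9 to 227 CPM (median 140.2), a log2 difference of 1.701 ± 0.19 (SE, adjusted p = 5.43e-05), while the lower genes included peroxidases, peroxiredoxins and glutathione transferases. Of 15 heat shock chaperones 8 were higher and 3 lower, against 5 and 1 with the macrophage level in the fit. Hspa1b was at 16.5 to 179 CPM (median 28.1) against 2.37 to 11.1 CPM (median 3.48), a log2 difference of 3.15 ± 0.49 (SE, adjusted p = 0.00036) and its neighbour Hspa1a at 15.5 to 159 CPM (median 21.7) against 7.57 to 34.9 CPM (median 11.2), a log2 difference of 1.55 ± 0.52 (SE, adjusted p = 0.0226), and as their sequences are nearly the same, the split of reads between them is uncertain. The Hspa1a call was lost with group weights, with the macrophage level in the fit (adjusted p of 0.147) and without HFD mouse 5 or 6. Of 23 immediate early genes 6 were higher and 4 lower, against 26.7% and 23.5% of all genes. Fosl1, a Fos-like factor, was at 58.5 to 126 CPM (median 75.4) against 0.762 to 21.5 CPM (median 16.7). For Fosl1 the log2 difference was 2.84 ± 0.52 (SE, adjusted p = 0.000957). With the macrophage level in the fit 3 of the immediate early genes were higher and 7 lower.

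Of 18 proliferation genes 9 were higher and 1 lower. The higher count was 15 without CD mouse 5, 6 with edgeR and with DESeq2, and 4 with the macrophage level in the fit, where the median log2 difference of the list was 0.11 against 0.85. Mki67, the marker of cycling cells, was at 116 to 191 CPM (median 161) against 3.89 to 94.2 CPM (median 16.7), a log2 difference of 3.07 ± 0.53 (SE, adjusted p = 0.000651) and cyclin D1, Ccnd1, at 25.5 to 40.5 CPM (median 33.5) against 2.03 to 55.4 CPM (median 5.596). For Ccnd1 the log2 difference was 2.13 ± 0.50 (SE, adjusted p = 0.00354). In the list of cell cycle arrest, where 3 of 18 were higher (5 without CD mouse 5) and 2 lower, Cdkn1a, the inhibitor p21, was at 227 to 509 CPM (median 361) against 31.9 to 254 CPM (median 160.1). For Cdkn1a the log2 difference was 1.41 ± 0.39 (SE, adjusted p = 0.00841), a call lost with the macrophage level in the fit (adjusted p of 0.068). Of 17 hypoxia and angiogenesis genes 7 were higher and 2 lower (4 without CD mouse 5 and with edgeR, 5 with DESeq2). Angpt2, a vessel-remodelling ligand, was at 6.098 to 15.6 CPM (median 12.2) against 0.339 to 5.39 CPM (median 1.23), a log2 difference of 2.36 ± 0.29 (SE, adjusted p = 9.66e-05) and Adm, adrenomedullin, at 62.1 to 114 CPM (median 93.9) against 3.301 to 39.7 CPM (median 30.1), a log2 difference of 1.96 ± 0.43 (SE, adjusted p = 0.00241), while Vegfa was among the lower genes.

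Of 23 genes of the unfolded protein response 8 were higher (3 with the macrophage level in the fit) and 1 (Ddit3, which encodes CHOP) was lower, a call lost without any single one of 11 of the 14 mice. Of 21 Wnt pathway genes 4 were higher and 5 lower (3 without HFD mouse 2), of 17 clock genes 3 (5 without CD mouse 7 or 8) and 2, of 16 retinoid genes 3 (5 without CD mouse 5) and 3 (5 without HFD mouse 4 or CD mouse 5), of 13 glucocorticoid genes 2 and 2, and of 10 browning genes 1 (2 without CD mouse 5) and 3. Over all genes tested 26.7% were called higher and 23.5% lower.

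Set beside the other 4 groups, the large rises were of more than 1 kind. For Mmp12 the medians were 14.2 CPM in the 8 week CD, 13.7 in the 20 week CD, 83.1 in the 34 week CD, 198 in the 8 week HFD, 1626 in the 20 week HFD and 1341 CPM in the 34 week HFD mice, so both later HFD groups were above all CD medians. Itgax was likewise high in both later HFD groups, with medians of 359.7 CPM at 20 and 503 CPM at 34 weeks against 4.57 CPM in the 20 week CD mice. Icam1 and Il1b were highest at 20 weeks of HFD, since the 34 week HFD medians were 88.9 CPM for Icam1 and 153 CPM for Il1b against 652 and 819 CPM at 20 weeks. These levels are a description and were not tested between times.

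Adamts4, Il6 and Cxcl3 were another kind, in which the 20 week CD mice were at the level of the HFD mice or above it. The 20 week CD mice ranged from 101 to 326 CPM for Adamts4, from 76.2 to 484 CPM for Il6 and from 34.4 to 128 CPM for Cxcl3. In the comparison of the 2 diets at 20 weeks, which shares its HFD mice with this one, Adamts4 differed by -0.54 log2 units (adjusted p of 0.09 in limma), Il6 by -0.86 (0.113) and Cxcl3 by -1.31 (0.0052). Gfpt2, Slc2a1, Srxn1, Fosl1 and Tnc had 20 week CD medians of 126, 124, 406, 117 and 47.8 CPM, of the same order as or above the 20 week HFD medians of 162, 83.6, 274, 75.4 and 51.7 CPM, so that for these genes it was the 34 week CD level that was low. In the 34 week HFD mice the medians of these 5 genes were 19.5, 39.8, 154, 8.65 and 7.55 CPM, below those of both 20 week groups. They are examples and not a full count. Txnrd1, Adm and Abca1 were not called by diet at 20 weeks, with differences of 0.08, 0.14 and -0.16. Their 20 week CD medians were 397, 81.2 and 832 CPM against 435, 93.9 and 774 CPM in the 20 week HFD mice.

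The falls were of more than 1 kind too. G0s2 was low in both 20 week groups and high in both 34 week groups, with medians of 16.2 CPM in the 20 week CD, 18.2 in the 20 week HFD, 206 in the 34 week CD and 152 CPM in the 34 week HFD mice. Cfd was high in young chow mice and lower in every HFD group, with medians of 17390.0, 19520.0 and 5375 CPM in the 8, 20 and 34 week CD mice and of 3016, 1132 and 832 CPM in the HFD mice of the same times. Sbsn was alike in the CD mice of all times, with medians of 106, 83.2 and 82.8 CPM, and lower in the HFD mice, with 35.9, 18.9 and 15.9 CPM. For Acly the 34 week CD median of 824 CPM was above the 409 and 416 CPM of the younger CD mice.

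**Figure D4:**
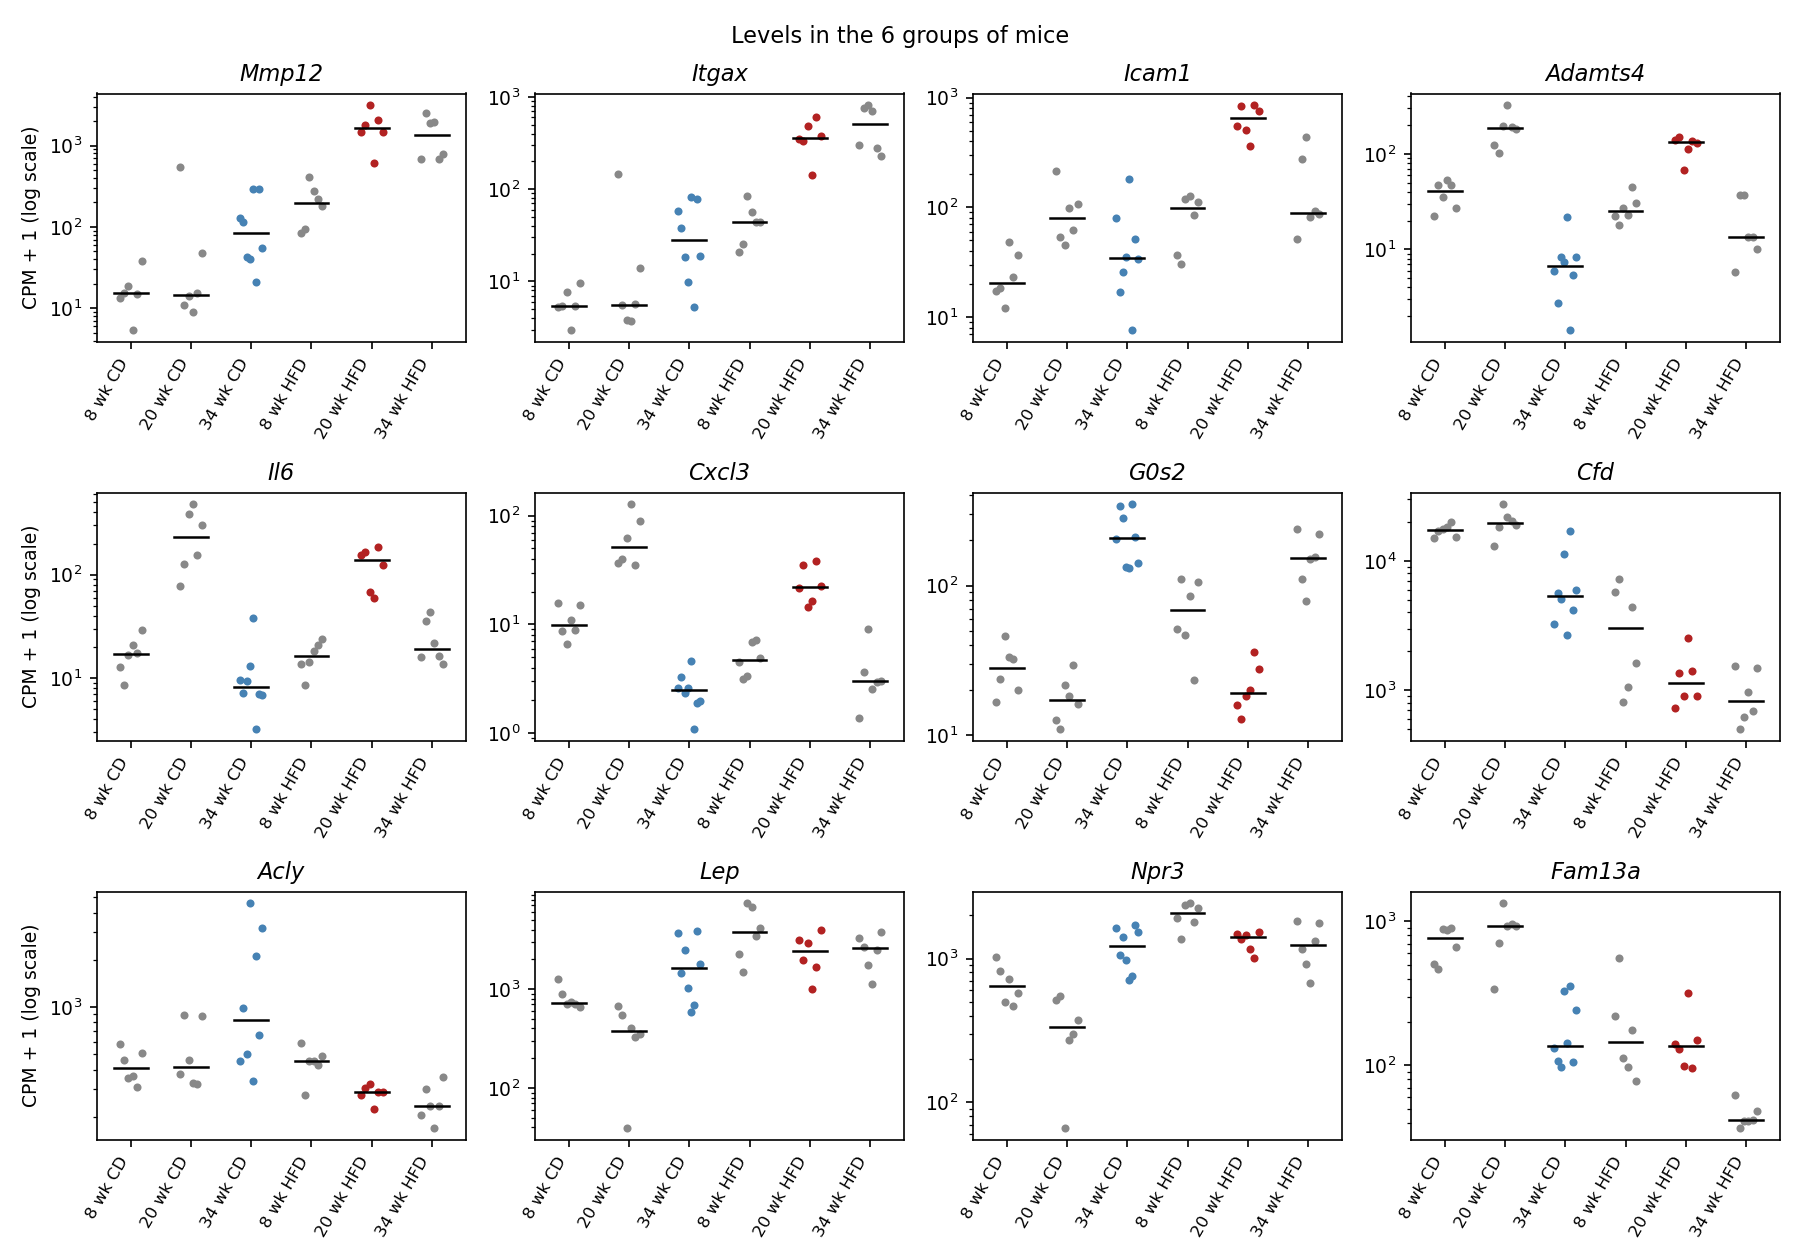
CPM + 1 (y axis, log scale) of 12 genes in every mouse of the 6 groups of diet and weeks on diet, with the 20 week HFD mice in red, the 34 week CD mice in blue, the other mice in grey and a line at each median. Mmp12 and Itgax are high in both later HFD groups, Adamts4, Il6 and Cxcl3 are low in the 34 week CD mice and high in both 20 week groups, and G0s2 is high in both 34 week groups.

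Some genes that differed by diet at 20 weeks had a mean near the HFD level in the 34 week CD mice. In the 20 week diet comparison 603 genes were higher and 37 lower in the HFD mice by at least 4-fold and without overlap. Of these, 419 and 25 were called in the same direction against the 34 week CD mice, and 14 and 2 had a 95% interval that lay within 1 log2 unit of 0 there. Genes that were neither called nor within these bounds were left undecided by intervals that were too wide. An interval within the bounds can still exclude 0, as for Fabp5 at -0.94 to -0.18, which was called lower in the HFD mice. The rule used the HFD mice of both comparisons, so these counts are a description. The 5 higher genes nearest to 0 were Arhgap19, Prune2, Ajuba, Npr3 and Lsp1. Npr3, the receptor that clears natriuretic peptides, was at 65.1 to 546 CPM in the 20 week CD mice, at 703 to 1715 CPM (median 1225) in the 34 week CD mice and at 1004 to 1518 CPM (median 1406) in the 20 week HFD mice, a difference of 0.18 ± 0.21 (SE, adjusted p = 0.485) with an interval of -0.27 to 0.64. Prune2 was at 4.57 to 38.5 CPM (median 17.5) in the 34 week CD mice and 12.2 to 23.1 CPM (median 17.9) in the HFD mice, and Ajuba, a LIM protein of cell junctions, at 6.59 to 17.4 CPM (median 9.22) and 8.91 to 14.8 CPM (median 11.7). For both, CD mice lay below and above the HFD range. For Ajuba 4 CD mice lay inside that range, but for Prune2 none did, so only the average of its CD mice was near the HFD level.

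The 2 lower genes that were reached were Fam13a, a gene linked to fat distribution, and Fgf2, a growth factor. Fam13a was at 336 to 1344 CPM in the 20 week CD mice, 96.2 to 355 CPM (median 136) in the 34 week CD mice and 94.8 to 315 CPM (median 134) in the HFD mice, with an interval of -0.98 to 0.52 for the difference. Fgf2 was at 38.3 to 57.5 CPM in the 20 week CD mice, 4.64 to 17.3 CPM (median 8.39) in the 34 week CD mice and 8.48 to 13.8 CPM (median 10.1) in the HFD mice, with an interval of -0.19 to 0.74. Every 34 week CD mouse was below every 20 week CD mouse for Fgf2, and for Fam13a only the highest 34 week CD mouse reached the range of the 20 week CD mice.

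The diet difference at 8 weeks comes from 12 other mice of equal age and shares none of the 14. There 37.0% of the genes tested here were higher in the HFD mice (3877 genes) and 18.4% were lower (1927 genes). Of the 2792 genes higher here 1074 (38.5%) were higher at 8 weeks, which is 27.7% of the genes higher at 8 weeks, a share near the background. Of the 1101 genes at least 2-fold higher here 637 (57.9%) were higher at 8 weeks and 173 (15.7%) were lower. Of the 2458 genes lower here 318 (12.9%) were lower at 8 weeks, which is 16.5% of the genes lower then, and 845 (34.4%) were higher. Of the 127 that were at least 2-fold lower 37 (29.1%) were lower and 28 (22.0%) higher at 8 weeks.

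By list, the macrophage, matrix and integrin genes were higher at 8 weeks too. At that time 11 of the 12 lipid-associated macrophage markers, 18 of 21 collagens, 20 of 32 remodelling enzymes, 13 of 17 integrin genes and 33 of 53 actin genes were higher. In the inflammatory and metabolic lists 6 of 23 cytokine genes were higher and 5 lower at 8 weeks, complex I had 10 higher and 3 lower of 36, the mitochondrial ribosome 30 higher and 7 lower of 75, and lipogenesis 5 higher and 3 lower of 15. Whether the 8 week difference and the present one differ for a list was not tested.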

How the data were processed

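RNA-seq of perigonadal adipocytes was read as 1 CPM value per gene and mouse for 38 mice, of which 14 entered the comparison. The authors made the CPM values: reads were aligned with STAR to mm10 and counted with featureCounts (Subread 1.5.1), 3 technical replicates were merged, and each column sums to 1000000, so library composition is not corrected. All values (100%) are whole multiples of 1 read within 0.1 reads, and the reads so recovered served count tests as alternatives only.

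Values were transformed to log2(CPM + 1), and 10470 genes with a mean above 2 were tested with limma 3.58.1 (mean-variance trend, R 4.3.3) on the 2 groups alone, with 12 residual degrees of freedom. Alternatives were other pseudocounts, filters and scalings, edgeR 4.0.16, DESeq2 1.42.0, all 6 groups in 1 fit, group weights, equal depth, the mean log2 level of the general macrophage markers as a covariate, a replicate block and leaving out each mouse. Genes named are the 10 largest rises and 10 largest falls without overlap, up to 3 per list, those the study names and those that long chow reached, with predicted genes passed over; some named genes are not reported here. The members, lists and naming rule were chosen with earlier results of these data known. The labels do not say whether mice shared cages or harvest days, so p-values measure the spread between these mice.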

Additional observations from a re-analysis of the deposited data

Results flagged for a closer look

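The genes named were examined in each group, 214 sets of values together with the reads on genes, for a mouse whose distance from the nearest other mouse was too large a share of the range of its group (Dixon's criterion), and 41 sets held such a mouse. The criterion is set to flag about 1 in 20 sets of normally spread values. Here it was applied to CPM without logs, and the sets share their mice. The 41 therefore cannot be weighed against that share. In the 34 week CD mice, mouse 5 was the high mouse in 28 genes, all values in CPM. Among matrix and adhesion genes these were Adamts4 20.7, Mmp13 6.67, Fat3 9.07, Lama2 16.3, Postn 115, Mmp2 59.1, Col6a5 67.5, Col1a1 555 and Ctsk 294. Among genes of leukocytes and inflammation they were Icam1 182, Prdm1 24.04, Ptprc 153, Folr2 411, Il1b 333, Il6 37.4, Itgad 21.8 and Zbtb46 9.92. The others were Gfpt2 37.2, Tgfb1 146, Tgfbr2 178, Npr1 26.7, Hspa1b 11.1, Hspa1a 34.9, Mki67 94.2, Ccnd1 55.4, Arhgap19 94.5, Pdgfra 25.8 and Angpt2 5.39. Mouse 5 was the lowest of its group for the lipase gene Mgll at 828 CPM.

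Mouse 6 of the same group was the highest for Rasd1 505, Rasl11b 92.9 and Cyp2f2 29.2 CPM, and mouse 2 was the highest for Saa3 at 776 CPM. Mouse 2 held the fewest reads on genes of its group, 9275711. Among the 20 week HFD mice, mouse 3 stood out for Serpinb9b at 115 CPM and mouse 5 for Rasd1 27.05 and Folr2 239.5 CPM, each the highest. HFD mouse 4 was the highest for Adipoq 4409 and Fam13a 315 CPM and the lowest for Lama2 42.05 and Elovl6 9.998 CPM.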

How the results depend on the processing

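Requiring a 2-fold difference as well left 1228 genes, 1101 higher and 127 lower. Without single mice the genes called ran from 4527 to 5961, with 2425 to 3284 higher and 2090 to 2677 lower. Mouse numbers were treated as names only. Correlations of same-numbered mice ran from -0.264 to 0.471. Differently numbered mice were not set beside them, so these values cannot decide whether the numbers pair the mice. A fit with the number as a replicate block called 5308 genes. The macrophage covariate called 3932 genes, of which 3470 were among the 5250 main calls, and edgeR called 5292 (genes called higher 2388, genes called lower 2904) and DESeq2 5684. No main call changed direction under any alternative run, and medians of all genes moved by less than 0.1. For Lsp1, not called in the main test at 0.19, the covariate gave a difference of -0.51 (adjusted p = 0.0343 in limma). The cause was not tested. Genes of low CPM are limited by depth.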
